A study of Mus musculus with 9 samples.

Results

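The genes described here are 10 members of the group known as beta cell disallowed genes, which most tissues express and mature beta cells hold at low levels. They are Ldha, Slc16a1, Acot7, Oat, Mgst1, Smad3, Cxcl12, Igfbp4, Arhgdib and Lmo4. They were taken by symbol from a deposited table of 52459 genes, all 10 were present, and all 10 passed the filter on low counts that left 16826 genes for testing. The RNA came from islets of Langerhans, the hormone-secreting cell clusters of the pancreas, of mice aged 12 weeks. The groups were db/db (homozygous mutant, -/-), db/+ (heterozygous, +/-) and WT (wild type, +/+), with 3 libraries each. All 9 libraries, WT included, carry the same strain label, which names the Leprdb mutation of the leptin receptor gene on a BKS background. Sex and any pooling of mice are not stated in the labels, nor is it stated that each library came from its own mouse. The p values therefore measure the spread between these libraries, which may be technical.

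Beta cells couple glucose to insulin release by burning pyruvate in mitochondria, and they are known for very low lactate dehydrogenase A and very low plasma membrane monocarboxylate transport. This keeps pyruvate from leaving as lactate, and keeps blood lactate or pyruvate raised by exercise from triggering insulin release. The disallowed group also holds genes of lipid, amino acid and detoxification enzymes and of growth, chemokine and cytoskeletal signalling, several of which are abundant in the stromal, vascular, exocrine and immune cells found around beta cells. In whole islets a count does not say which cell type it came from, and fewer cells of a type and less RNA per cell cannot be told apart.

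CPM is the library-size scaled count, computed from TMM-normalised sizes and printed with means ± SD over 3 libraries. Differences are log2 fold changes ± SE. Adjusted p refers to the quasi-likelihood test of edgeR, adjusted by Benjamini-Hochberg over all 16826 genes, with a threshold of 0.05. A total of 3 counts, the limit that a count of 0 allows, lay between 0.238 and 0.412 CPM, and it covers counting error only.

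Total counts were 8860024 to 9260105 in db/db, 11164775 to 11734886 in db/+ and 9558955 to 11473420 in WT. The library db/db 1 stood apart from the other 2 of its group. It had the highest summed levels of acinar markers (50535 CPM, with 18454 and 19202 CPM for db/db 2 and db/db 3), of stellate, fibroblast and pericyte markers (2072 CPM, against 791 and 1335 CPM), of endothelial markers (906 CPM, against 701 and 687 CPM) and of leukocyte markers (267 CPM, against 171 and 155 CPM). It also held the female-specific transcript Xist (308 CPM) together with 4 Y-linked genes (176 CPM summed), as did WT 1 and WT 3. The other db/db libraries had Xist and at most 1.11 CPM of the Y-linked sum, and db/+ had the Y-linked genes with at most 0.506 CPM of Xist. Every db/db library thus held Xist (308 CPM or more), and WT 2 had 0.722 CPM of it. Between db/db and db/+ the sex that Xist marks and the genotype therefore cannot be told apart, and against WT that sex was unbalanced. Counts of Gm42418 and Lars2, genes that can collect ribosomal RNA reads, took 17.9%, 13.3% and 0.0558% of the db/db libraries, at most 0.0237% of db/+ and 1.89% to 2.58% of WT. The sample titles open with the letter H in db/db and WT 3 and with G in the others, and what the letter means is not stated. Between db/db and db/+ the letter and the genotype cannot be told apart. Any fit with the letter as a covariate takes its effect from WT 3 against WT 1 and WT 2 alone. Beta cell markers were present in every library but mostly lower in db/db. Their levels summed to 91969 to 125208 CPM among db/db, 104206 to 116249 CPM among db/+ and 83874 to 121523 CPM among WT libraries, and none of those 10 markers was at 0 in any library. In db/db 7 of the 10 were called lower and 1 higher against both WT (median log2 fold change -1.32) and db/+ (median -1.38). Of all tested genes 19.9% were called lower against WT and 19.7% against db/+.

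The sequence before the start of the gene is shown for 4 of the members, for Ldha and Slc16a1 because they act at successive steps of lactate release and for Oat and Igfbp4 because they rose in both comparisons of db/db. The sequences are the 250 bases before the most upstream start in a promoter table from RefSeq GRCm38.p6, the assembly of mm10. All 10 members were matched, and for Ldha and Igfbp4 that start lies inside the annotated gene. Capitals mark ACGTG, the core of a hypoxia response element, and GGGCGG, a GC box, on either strand, and ACGTG matches on both strands overlap in CACGTG, which is also an E-box.
Ldha, chr7:46845554-46845803, plus strand: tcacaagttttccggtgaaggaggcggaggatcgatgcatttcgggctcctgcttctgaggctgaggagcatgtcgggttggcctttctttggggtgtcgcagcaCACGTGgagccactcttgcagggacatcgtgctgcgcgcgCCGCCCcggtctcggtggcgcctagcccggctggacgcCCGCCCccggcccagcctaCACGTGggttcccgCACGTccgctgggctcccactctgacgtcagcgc
Slc16a1, chr3:104638414-104638663, plus strand: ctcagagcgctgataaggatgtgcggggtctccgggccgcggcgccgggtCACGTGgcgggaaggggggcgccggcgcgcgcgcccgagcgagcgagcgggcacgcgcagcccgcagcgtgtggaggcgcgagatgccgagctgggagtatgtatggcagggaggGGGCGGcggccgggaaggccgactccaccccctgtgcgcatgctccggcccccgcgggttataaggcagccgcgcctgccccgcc
Oat, chr7:132576399-132576648, minus strand: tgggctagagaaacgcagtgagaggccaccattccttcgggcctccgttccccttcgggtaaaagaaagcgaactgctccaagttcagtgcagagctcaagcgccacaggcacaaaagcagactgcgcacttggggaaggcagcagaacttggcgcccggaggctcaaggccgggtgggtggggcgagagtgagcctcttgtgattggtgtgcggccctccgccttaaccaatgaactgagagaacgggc
Igfbp4, chr11:99040994-99041243, plus strand: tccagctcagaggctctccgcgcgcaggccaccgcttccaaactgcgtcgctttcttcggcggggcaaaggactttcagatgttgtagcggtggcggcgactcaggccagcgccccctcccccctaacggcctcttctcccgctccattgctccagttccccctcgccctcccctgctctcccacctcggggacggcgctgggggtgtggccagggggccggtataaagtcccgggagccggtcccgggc
The Ldha window held 3 separate ACGTG matches and 2 GC boxes, and the Slc16a1 window 1 of each. The Oat and Igfbp4 windows held 0 of either. Among 27025 mouse promoters of the same length, 16.5% held ACGTG and 33% held GGGCGG. Of the 10 members, ACGTG was found in front of Ldha and Slc16a1 only. GGGCGG was found in front of these and of Acot7, Mgst1, Smad3, Cxcl12 and Lmo4, and not of Oat, Igfbp4 or Arhgdib. These are matches of letters, not measured binding sites.

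Most members were low in these islets, as the name of the group says. Per kilobase of merged exons, the WT levels of the members lay between 0.501 ± 0.226 CPM per kb for Slc16a1 and 6.38 ± 0.718 CPM per kb for Oat (SD, n = 3), while Ins2 stood at 62107 ± 13441 CPM per kb. Among 12217 tested coding genes with a known length, ordered by WT level per kilobase, Slc16a1 stood at percentile 9.54, Cxcl12 at 14.8, Mgst1 at 17.8 and Oat, the highest member, at 51.5. Ldha was at percentile 25.8 in WT, below its relative Ldhb at 58.3, and Arhgdib was at 22.1 while its relative Arhgdia was at 95.3. The 3 highest members were Oat, Igfbp4 and Ldha in both db/db and WT, and in WT the levels of Igfbp4 and Ldha (2.23 ± 1.16 and 2.02 ± 0.883 CPM per kb) did not differ beyond their spread. In db/db Oat reached percentile 85.0 (22.2 ± 3.88 CPM per kb) and Igfbp4 percentile 70.2 (11.6 ± 7.24 CPM per kb), Ldha stood at 42.0 and Slc16a1 remained the lowest member at 8.52. Single counts behind these levels ran from 10 to 483 per library, so counting error is large for Slc16a1 (10 to 35 counts) and Arhgdib (12 to 63 counts) and smallest for Oat (up to 483 counts).

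**Figure D1:**
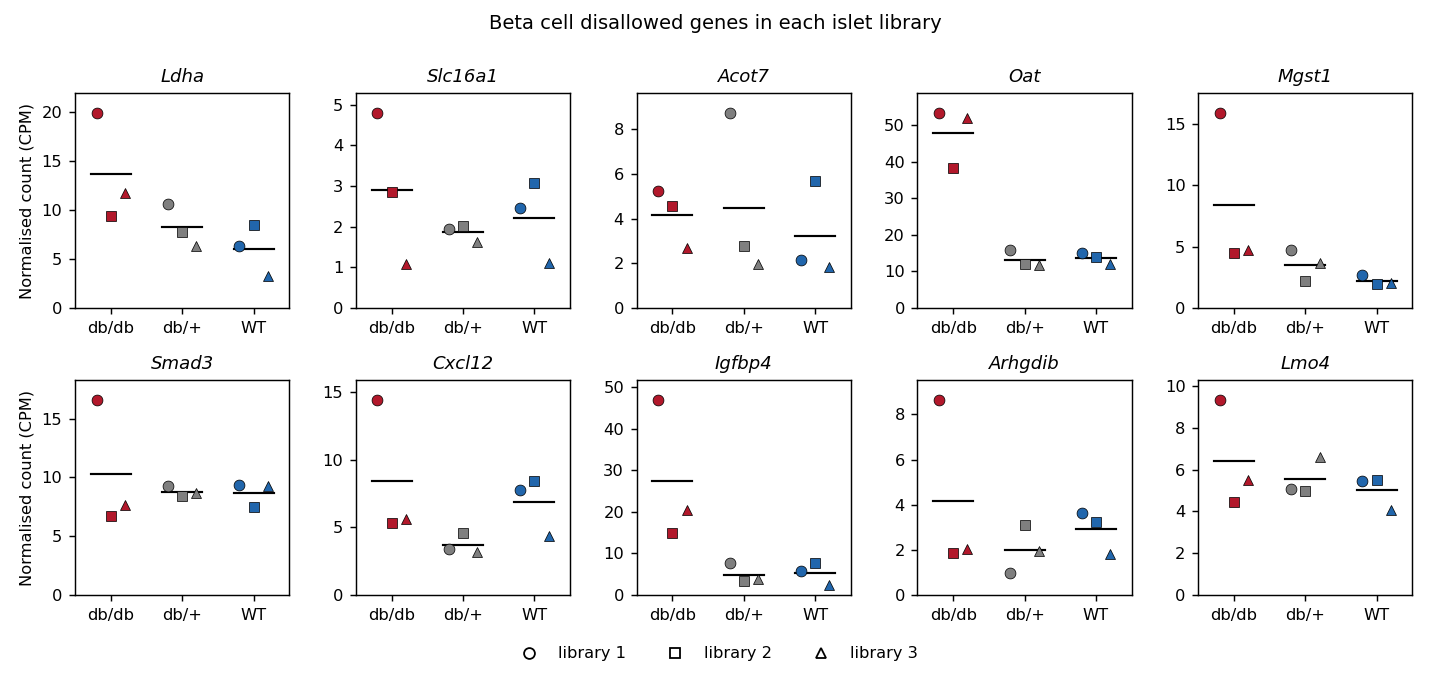
Normalised counts (CPM, linear axes from 0) of the 10 disallowed genes in each library of db/db, db/+ and WT islets; symbols give the library number and bars the group mean. Oat is high in all 3 db/db libraries (38.3 to 53.4 CPM, against at most 15.8 CPM elsewhere), whereas 9 of the 10 genes, all but Acot7, are highest in db/db 1.

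Islets of db/db mice were set against those of WT mice to see which of the disallowed genes differ in mice homozygous for the mutation. Of the 10 members, 4 rose in db/db, namely Ldha, Oat, Mgst1 and Igfbp4, 0 fell, and 6 did not pass. Of all tested genes 21.8% were called higher and 19.9% lower in db/db. The same 4 members had every db/db library above every WT library, as did 26.2% of all genes. The median log2 fold change of the members was 0.42, beside 0.01 for all genes. That median includes db/db 1. Without that library Slc16a1 (-0.21), Smad3 (-0.28), Cxcl12 (-0.33), Arhgdib (-0.58) and Lmo4 (-0.01) lay below 0, and the other members above 0. Without db/db 1 the call remained for 3 members, Oat, Mgst1 and Igfbp4. With the mean of acinar markers as a covariate the call remained for Oat alone. That mean did not overlap between db/db (at least 8.76 log2 CPM) and WT (at most 8.13 log2 CPM). A call lost in that fit therefore cannot be assigned to acinar content or to genotype. With the summed Y-linked counts as a covariate 8 members were called higher, all but Slc16a1 and Acot7. That covariate added Smad3 (adjusted p = 0.00619), Cxcl12 (0.0156), Arhgdib (0.0229) and Lmo4 (0.0326). The Y-linked sum was 176 CPM in db/db 1 and 1.11 and 0.108 CPM in the other db/db libraries. Within groups this covariate thus varied mainly through db/db 1, and without db/db 1 none of the added genes lay above 0. Leaving out WT 1 left 2 calls, and leaving out WT 3 left 1, where 3137 of 17043 and 3251 of 17278 genes were called higher.

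In db/db against db/+, which shares the db/db libraries with the comparison above, 3 of the 10 members rose (Oat, Cxcl12 and Igfbp4), 0 fell and 7 did not pass, where 20.6% of all genes were called higher and 19.7% lower. The 3 had no overlap between the groups, and 26.2% of all genes had every db/db library above every db/+ library. The median log2 fold change was 0.88 for the members and 0.01 for all genes, with db/db 1 included. Without that library Acot7 (-0.31), Smad3 (-0.28), Arhgdib (-0.03) and Lmo4 (-0.15) lay below 0, and the other members above 0. Without db/db 1 the called members were Oat and Igfbp4, where 3254 of 17209 genes were called higher. Oat alone was called with the title letter as a covariate, where 1007 of 16826 genes were called higher. That letter is H in every db/db and G in every db/+ library, so only WT 3 separates it from genotype. Without db/+ 2 or without db/+ 3, 1 member was called, where 2765 of 17045 and 2843 of 17068 genes were called higher. With the Y-linked covariate 8 members were called, all but Acot7 and Lmo4, where 2517 of 16826 genes were called higher. That covariate added Ldha (adjusted p = 0.0349), Slc16a1 (0.0307), Mgst1 (2.55e-04), Smad3 (0.00583) and Arhgdib (0.00491). As said above, it varied within groups mainly through db/db 1. In db/+ against WT 0 of 10 members passed edgeR's test, 0 passed by DESeq2 or limma-voom and 1 (Cxcl12) had an unadjusted p under 0.05 in edgeR, and 0.606% and 0.82% of all genes were called higher and lower.

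**Figure D2:**
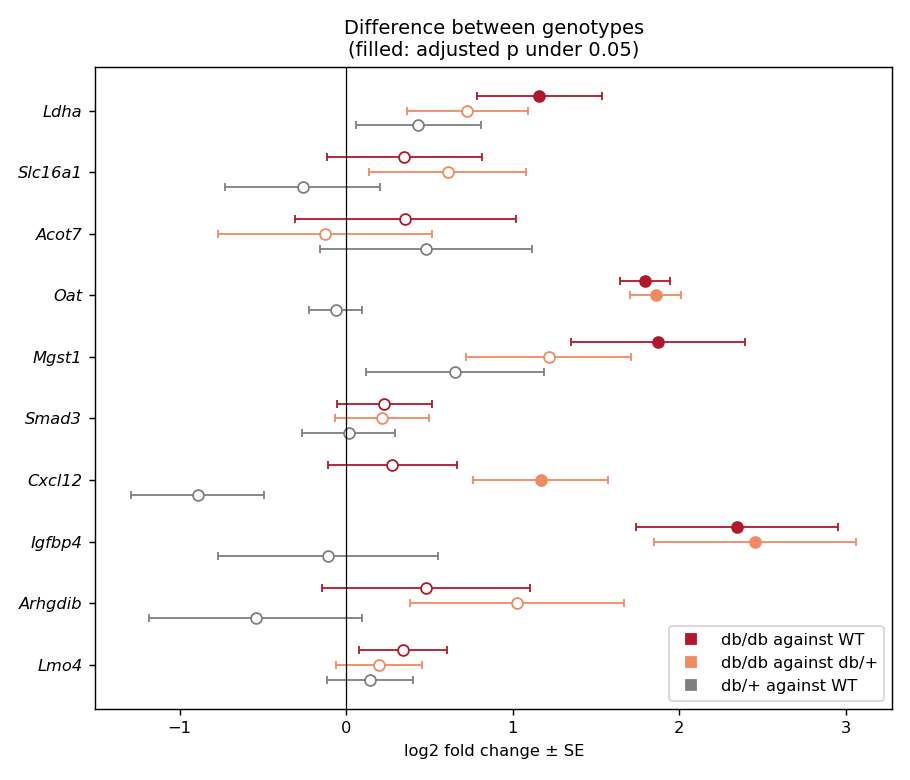
Log2 fold changes ± SE (edgeR, 9 libraries) of the 10 genes in the 3 comparisons, filled where the adjusted p is under 0.05. The Oat and Igfbp4 points lie between 1.80 and 2.46 in both db/db comparisons and near 0 for db/+ against WT (-0.06 and -0.11).

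Ldha (chromosome 7, 46842274 to 46855627, mm10) encodes the lactate dehydrogenase subunit that favours conversion of pyruvate to lactate. Its level was 19.9, 9.41 and 11.7 CPM among db/db, 10.6, 7.76 and 6.28 CPM among db/+ and 6.35, 8.49 and 3.25 CPM among WT libraries. Every db/db library was above every WT library, but db/+ 1 lay above db/db 2. Ldha rose against WT (1.16 ± 0.38, 2.24-fold, adjusted p = 0.0340) and did not pass against db/+ (0.73 ± 0.36, adjusted p = 0.144) or between db/+ and WT (0.43 ± 0.38, adjusted p = 0.648). The call against WT ended without db/db 1 (0.80 ± 0.33, adjusted p = 0.0834), db/db 3 (adjusted p = 0.0527), db/+ 2 (0.0524), WT 1 (0.0893) or WT 3 (0.0671), and it also ended with the filter on low counts removed (0.0991), with library totals as scale (0.0686), with only the compared groups fitted (0.0531) and with the acinar covariate (0.431). Near copies can share reads with Ldha, and the listed pseudogenes Ldha-ps and Ldha-ps2 had at most 2 and 5 counts per library.

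Slc16a1 (chromosome 3, 104638664 to 104658462) encodes MCT1, the plasma membrane transporter of lactate and pyruvate, and was the lowest member in every group per kilobase. It had 4.80, 2.85 and 1.08 CPM among db/db, 1.94, 2.02 and 1.63 CPM among db/+ and 2.46, 3.07 and 1.12 CPM among WT libraries. The db/db libraries held both the highest and the lowest value of the 9. The log2 fold change was 0.35 ± 0.47 against WT (adjusted p = 0.577) and 0.61 ± 0.47 against db/+ (adjusted p = 0.329), and without db/db 1 it was -0.21 ± 0.45 and 0.06 ± 0.46. With the Y-linked covariate Slc16a1 was called higher against db/+ (1.69, adjusted p = 0.0307) and did not pass against WT (1.31, adjusted p = 0.0671).

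Around these steps, 10 of 29 other genes of lactate and pyruvate handling rose in db/db against WT, 4 fell and 15 did not pass, with a median of 0.08 beside 0.01 for all genes, and 9 and 4 were called without db/db 1. Against db/+ 9 rose, 8 fell and 12 did not pass, with a median of 0.15. The shares of all genes were 21.8% higher and 19.9% lower against WT, and 20.6% and 19.7% against db/+. Ldhb, whose subunit makes the other form of lactate dehydrogenase, fell. It stood at 3.70, 4.21 and 3.66 CPM among db/db, 9.70, 12.1 and 9.38 CPM among db/+ and 13.3, 12.4 and 12.0 CPM among WT libraries (-1.70 ± 0.17 against WT, adjusted p = 3.38e-06). All db/db libraries thus lay below all others for Ldhb. In levels per kilobase, Ldha averaged 4.59 ± 1.85 and Ldhb 2.46 ± 0.194 CPM per kb in db/db, whereas Ldha averaged 2.02 ± 0.883 and Ldhb 8.00 ± 0.440 CPM per kb in WT (SD, n = 3 each), so the order of these subunit genes was opposite in db/db and WT. Pdk1, a kinase that switches off pyruvate dehydrogenase, rose to 74.2, 77.9 and 71.3 CPM among db/db libraries, against 35.5, 32.6 and 28.2 CPM among WT libraries (1.21 ± 0.09, adjusted p = 3.22e-07). Gpd1, the cytosolic enzyme of the glycerol phosphate shuttle, rose by 0.99 ± 0.10 (adjusted p = 5.84e-06). Its mitochondrial partner Gpd2 fell by 1.39 ± 0.10 (adjusted p = 3.21e-07).

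The lowest fold change of that list belonged to Pcx, pyruvate carboxylase, which feeds pyruvate into the mitochondrial cycle that beta cells use. It was at 41.6, 55.2 and 50.8 CPM among db/db, 149, 189 and 179.9 CPM among db/+ and 175, 213 and 207 CPM among WT libraries (-2.01 ± 0.12 against WT, adjusted p = 1.23e-07). Among lactate transporters, Slc16a3 (MCT4, the exporter of glycolytic tissues) was near the detection limit, with 1.51, 2.48 and 0.970 CPM among db/db, 0.808, 0.337 and 0.653 CPM among db/+ and 0.397, 0.271 and 1.12 CPM among WT libraries. It passed against WT (1.49 ± 0.54, adjusted p = 0.0412) although the groups overlapped, and the call ended in 6 of 9 fits with a library left out (adjusted p from 0.0122 to 0.197). Bsg, the chaperone that carries MCT1 and MCT4 to the cell surface, rose by 0.79 ± 0.09 against WT (adjusted p = 1.12e-05) and was abundant throughout, at 430.3 ± 46.4 CPM among db/db, 292 ± 15.9 CPM among db/+ and 249 ± 9.70 CPM among WT libraries.

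**Figure D3:**
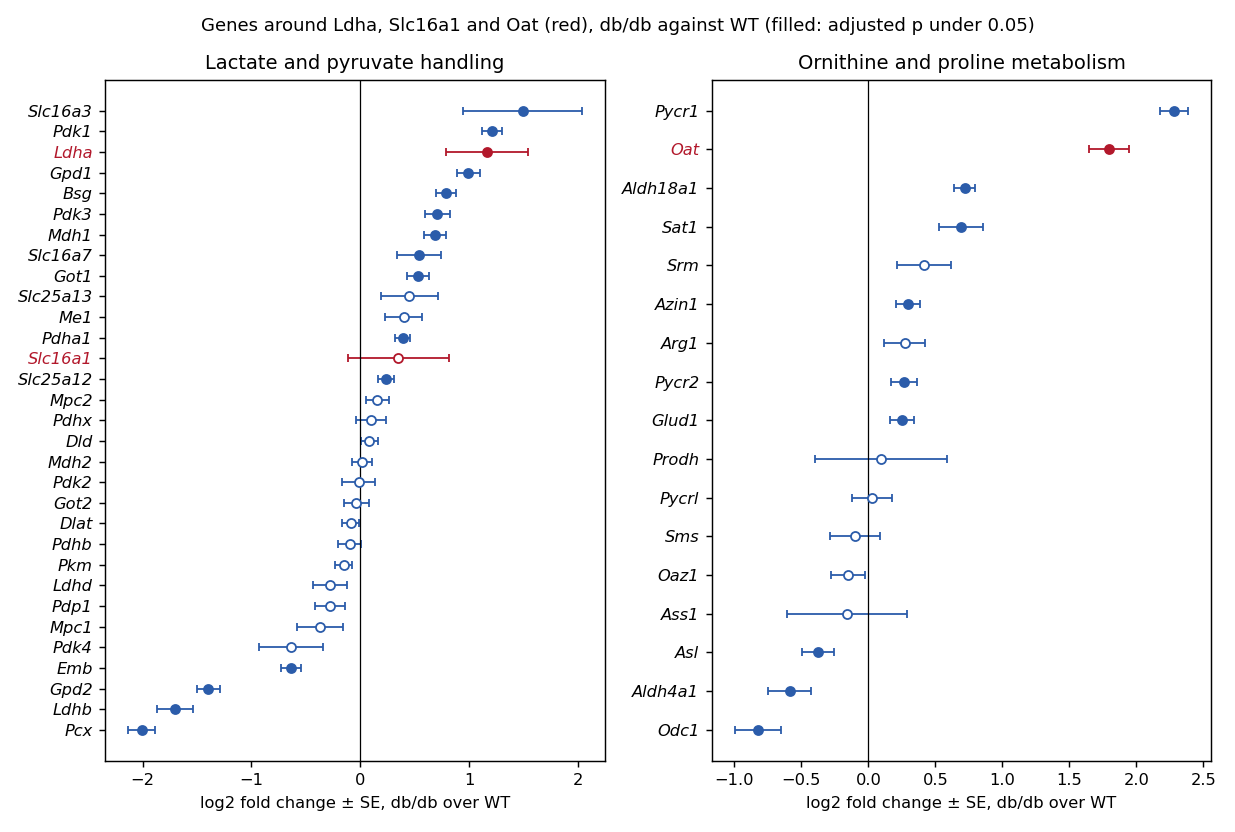
Log2 fold changes ± SE for db/db over WT of the genes listed for lactate and pyruvate handling (left) and for ornithine and proline metabolism (right), with the disallowed genes in red and filled points for an adjusted p under 0.05. Pcx, Ldhb and Gpd2 lie at the bottom of the left panel (-2.01, -1.70 and -1.39), and Pycr1 (2.28) and Oat (1.80) at the top of the right one.

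Oat (chromosome 7, 132557475 to 132576398) encodes ornithine aminotransferase, the mitochondrial enzyme that links ornithine with glutamate and proline. It was the member with the largest difference relative to its spread. Oat was at 53.4, 38.3 and 52.0 CPM among db/db, 15.8, 12.0 and 11.8 CPM among db/+ and 15.2, 14.0 and 12.1 CPM among WT libraries. The lowest db/db library was thus far above the highest of the other 6. It rose 3.47-fold against WT (1.80 ± 0.15, adjusted p = 1.21e-06) and 3.63-fold against db/+ (1.86 ± 0.15, adjusted p = 9.38e-07), and db/+ against WT did not pass (-0.06 ± 0.16, adjusted p = 0.896). Both db/db calls held in all 9 fits with a library left out and under all 11 other settings, and without db/db 1 the value against WT was 1.71 ± 0.16. Oat was also the member in which db/db 1 differed least from the other 2 libraries of its group, by 1.18 times.

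Of 16 tested genes of ornithine and proline metabolism besides Oat, 6 rose, 3 fell and 7 did not pass in db/db against WT, with a median of 0.17 beside 0.01 for all genes, and 6 and 2 were called without db/db 1. Against db/+ 4 rose, 4 fell and 8 did not pass, with a median of 0.06. The shares of all genes were 21.8% higher and 19.9% lower against WT, and 20.6% and 19.7% against db/+. Pycr1, which makes proline in the last step of its synthesis, stood at 65.3, 84.0 and 75.9 CPM among db/db, 20.1, 18.9 and 19.2 CPM among db/+ and 16.0, 15.5 and 14.6 CPM among WT libraries (2.28 ± 0.10 against WT, adjusted p = 3.68e-09). All db/db libraries were above all others for Pycr1, as for Oat. Aldh18a1, which makes the precursor that Pycr1 and Oat share, rose by 0.72 ± 0.08 (adjusted p = 8.29e-06). Odc1, which turns ornithine into putrescine, fell by 0.82 ± 0.17 (adjusted p = 0.00449), with 58.4 ± 7.96 CPM among db/db libraries and 103 ± 19.0 CPM among WT libraries. Aldh4a1, which breaks that precursor down to glutamate, fell by 0.59 ± 0.16 (adjusted p = 0.00871).

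Acot7 (chromosome 4, 152178100 to 152271855) encodes a cytosolic acyl-CoA thioesterase, which splits long-chain acyl-CoA into free fatty acid and coenzyme A. It had 5.21, 4.58 and 2.69 CPM among db/db, 8.73, 2.78 and 1.96 CPM among db/+ and 2.14, 5.69 and 1.83 CPM among WT libraries. The groups overlapped throughout, and the highest library was db/+ 1, the only member for which a library outside db/db was highest. The log2 fold changes were 0.35 ± 0.66 against WT (adjusted p = 0.701) and -0.13 ± 0.64 against db/+ (adjusted p = 0.897). Without db/+ 1 the value against db/+ was 0.79 (adjusted p = 0.241). Of 7 other thioesterase genes tested, 3 rose, 0 fell and 4 did not pass against WT, with a median of 0.19, where 21.8% of all genes were higher and 19.9% lower, and 2 rose and 0 fell without db/db 1. Against db/+ 2 rose and 1 fell, with a median of -0.26, where 20.6% of all genes were higher and 19.7% lower, and 1 rose and 1 fell without db/db 1. Acot9, a mitochondrial member, rose by 0.86 ± 0.22 (adjusted p = 0.00590), with 6.42 ± 1.13 CPM among db/db libraries and 3.50 ± 0.327 CPM among WT libraries. Acot1 rose by 1.83 ± 0.49 (adjusted p = 0.00895) at low levels (1.64 ± 0.961 CPM among db/db libraries and 0.434 ± 0.177 CPM among WT libraries), a call that ended without db/db 1 (adjusted p = 0.0590), and it can share reads with its near-identical neighbour Acot2.

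Mgst1 (chromosome 6, 138140527 to 138156755) encodes a membrane-bound glutathione transferase that removes lipid peroxides and reactive compounds. It had 15.9, 4.46 and 4.74 CPM among db/db, 4.77, 2.19 and 3.67 CPM among db/+ and 2.70, 1.99 and 2.03 CPM among WT libraries. The db/db libraries were all above WT, and db/+ 1 lay level with db/db 2 and db/db 3. Mgst1 rose against WT (1.87 ± 0.52, 3.66-fold, adjusted p = 0.0176) and did not pass against db/+ (1.22 ± 0.49, adjusted p = 0.0782). Without db/db 1 the value against WT was 1.03 ± 0.32 (adjusted p = 0.0199), and the call against WT ended without WT 2 or WT 3 (adjusted p = 0.0618 and 0.0631), with the letter that opens the sample titles as a covariate (0.133) and with the acinar covariate (0.638). Against db/+ Mgst1 was called by DESeq2 (1.23, adjusted p = 0.0208), with the Y-linked covariate (2.40, adjusted p = 2.55e-04) and without db/db 2 or db/db 3 (adjusted p = 0.0295 and 0.0383).

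Of 14 other genes of glutathione transferases and the MAPEG family tested, 7 rose, 0 fell and 7 did not pass against WT, with a median of 0.52, where 21.8% of all genes were higher and 19.9% lower. Without db/db 1, 6 rose and 1 fell. Against db/+ 5 rose and 0 fell, with a median of 0.44, where 20.6% of all genes were higher and 19.7% lower. Gstm5 stood at 37.6, 28.9 and 36.7 CPM among db/db libraries, against 11.1, 12.0 and 8.74 CPM among WT libraries (1.69 ± 0.15, adjusted p = 1.21e-06). Gsto1 stood at 23.2, 17.1 and 21.7 CPM among db/db libraries, against 7.78, 7.49 and 7.52 CPM among WT libraries (1.44 ± 0.15, adjusted p = 4.33e-06). Neither gene had any overlap between db/db and WT. Mgst3, a relative of Mgst1, had 6.78 ± 1.27 CPM among db/db libraries and 5.15 ± 1.09 CPM among WT libraries and did not pass (0.40 ± 0.22, adjusted p = 0.158). Members of the Gstm family are similar in sequence and can share reads.

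Igfbp4 (chromosome 11, 99040005 to 99052655) encodes a secreted protein that binds insulin-like growth factors and holds them from their receptor. It had the highest fold change of the members. It stood at 46.9, 15.0 and 20.4 CPM among db/db, 7.68, 3.37 and 3.75 CPM among db/+ and 5.71, 7.77 and 2.34 CPM among WT libraries. All db/db libraries were above all others, with db/db 1 at 2.65 times the mean of the other 2. Igfbp4 rose 5.10-fold against WT (2.35 ± 0.61, adjusted p = 0.0200) and 5.49-fold against db/+ (2.46 ± 0.61, adjusted p = 0.0174). Without db/db 1 the values were 1.73 ± 0.47 (adjusted p = 0.0246) and 1.85 ± 0.47 (adjusted p = 0.0199). The call against WT ended without WT 1 or WT 3 (adjusted p = 0.0620 and 0.0514) and with the acinar covariate (0.362), and that against db/+ ended without db/+ 2 or db/+ 3 (0.0619 and 0.0639) and with the title letter covariate (0.0899).

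Of 14 other tested genes of the insulin-like growth factor axis, 6 rose, 3 fell and 5 did not pass against WT, with a median of 0.42 and the same counts without db/db 1. Against db/+ 6 rose and 2 fell, beside 20.6% and 19.7% of all genes, and 21.8% and 19.9% of all genes against WT. Pappa2, a protease that cleaves binding proteins of the same family, was abundant and stood at 2685, 3520.1 and 3475 CPM among db/db, 588, 579.6 and 509 CPM among db/+ and 549, 401 and 458 CPM among WT libraries (2.78 ± 0.14 against WT, adjusted p = 9.43e-09). Stc1, known as an inhibitor of the related protease PAPP-A, rose by 1.90 ± 0.24 (adjusted p = 2.68e-05). The receptor substrate gene Irs1 fell by 0.84 ± 0.11 (adjusted p = 5.50e-05). The receptor gene Igf1r fell by 0.75 ± 0.11 against WT (adjusted p = 1.32e-04) and did not pass against db/+ (-0.28 ± 0.11, adjusted p = 0.0587).

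Smad3 (chromosome 9, 63646766 to 63757994) encodes a transcription factor that carries signals of TGF-beta and activin receptors into the nucleus. It had 16.6, 6.69 and 7.65 CPM among db/db, 9.30, 8.44 and 8.65 CPM among db/+ and 9.36, 7.49 and 9.25 CPM among WT libraries. Apart from db/db 1, the 8 libraries lay between 6.69 and 9.36 CPM. The log2 fold change was 0.23 ± 0.28 against WT (adjusted p = 0.549) and -0.28 ± 0.18 without db/db 1 (adjusted p = 0.244). With library totals as the only scale, which moves the median of all genes to -0.22, it was -0.02, still above that median. Its partner Smad2 fell without overlap, with 24.2 ± 1.34 CPM among db/db, 40.6 ± 5.61 CPM among db/+ and 39.3 ± 3.21 CPM among WT libraries (-0.70 ± 0.11 against WT, adjusted p = 2.89e-04).

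In the list of TGF-beta and SMAD signalling besides Smad3, 10 of 26 genes were higher and 3 lower against WT, 13 not passing, with a median of 0.23, and 9 and 3 were called without db/db 1. Against db/+ 12 rose and 3 fell, beside 20.6% and 19.7% of all genes, and 21.8% and 19.9% of all genes against WT. The ligand gene Inhbb, a subunit of activin B, stood at 36.1, 34.1 and 31.6 CPM among db/db, 6.95, 4.81 and 3.75 CPM among db/+ and 2.54, 3.43 and 3.76 CPM among WT libraries (3.39 ± 0.20 against WT, adjusted p = 3.97e-08). Inhbb was picked from the list for its small adjusted p, so a difference larger than that of Smad3 follows in part from the choice. Inhbb had no overlap between db/db and the other groups. The ligand gene Tgfb3 rose by 2.35 ± 0.23 (adjusted p = 3.01e-06). The receptor gene Tgfbr1 fell by 0.76 ± 0.08 (adjusted p = 4.46e-06).

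Cxcl12 (chromosome 6, 117168535 to 117181368) encodes a chemokine made by stromal and vascular cells that acts through the receptors of Cxcr4 and Ackr3. It had 14.4, 5.33 and 5.60 CPM among db/db, 3.40, 4.56 and 3.18 CPM among db/+ and 7.78, 8.40 and 4.37 CPM among WT libraries. The db/+ libraries were the lowest on the whole, WT 3 lying just below the highest of them, and the db/db and WT groups overlapped. Cxcl12 rose against db/+ (1.17 ± 0.40, 2.25-fold, adjusted p = 0.0422) and did not pass against WT (0.28 ± 0.39, adjusted p = 0.598), and db/+ against WT did not pass (-0.89 ± 0.40, adjusted p = 0.321). The rise against db/+ is therefore not shown to be one above WT levels. The call was lost without db/db 1 (0.57 ± 0.28, adjusted p = 0.134), without any of db/+ 1 (0.118), db/+ 2 (0.0615) or db/+ 3 (0.126), and without WT 1 (0.0594) or WT 2 (0.0509). It was also lost with library totals as scale (0.0571), by limma-voom (0.0591), with the title letter (0.0831) and with the acinar covariate (0.0710). With the Y-linked covariate Cxcl12 was called higher against WT (1.15, adjusted p = 0.0156) and lower in db/+ against WT (-1.0, adjusted p = 0.0470).

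Among 8 other tested genes of CXCL12 signalling, 3 rose, 1 fell and 4 did not pass against WT, with the same counts without db/db 1 and a median of 0.25. Against db/+ 3 rose and 2 fell, beside 20.6% and 19.7% of all genes, and 21.8% and 19.9% of all genes against WT. Dpp4, the surface protease that inactivates the chemokine, rose to 101, 89.7 and 86.2 CPM among db/db libraries, against 42.9, 40.5 and 41.6 CPM among WT libraries (1.15 ± 0.09, adjusted p = 5.78e-07). Ackr3, a scavenging receptor, rose by 1.29 ± 0.22 (adjusted p = 3.35e-04). The G protein gene Gnai2 fell by 0.67 ± 0.09 (adjusted p = 7.98e-05). Cxcr4 did not pass, with 9.96 ± 7.18 CPM among db/db libraries and 7.28 ± 0.197 CPM among WT libraries (adjusted p = 0.465).

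Arhgdib (chromosome 6, 136923655 to 136941899) encodes a GDP-dissociation inhibitor of small GTPases, best known from blood cells. It had 8.64, 1.86 and 2.05 CPM among db/db, 0.970, 3.12 and 1.96 CPM among db/+ and 3.65, 3.25 and 1.83 CPM among WT libraries. The whole excess of the db/db mean lay in db/db 1, at 4.43 times the mean of the other 2, the largest such ratio among the members. The log2 fold change against WT was 0.48 ± 0.63 (adjusted p = 0.572) and, without db/db 1, -0.58 ± 0.45 (adjusted p = 0.323). Its ubiquitous relative Arhgdia did not pass, at 103 ± 4.33 CPM among db/db libraries and 112 ± 15.5 CPM among WT libraries (-0.11 ± 0.10, adjusted p = 0.393).

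Lmo4 (chromosome 3, 144188530 to 144205255) encodes a LIM-only protein that joins transcription factor complexes. It had 9.33, 4.46 and 5.50 CPM among db/db, 5.09, 4.98 and 6.61 CPM among db/+ and 5.47, 5.51 and 4.06 CPM among WT libraries, with overlap between all groups. Its log2 fold change was 0.34 ± 0.26 against WT (adjusted p = 0.318) and -0.01 ± 0.24 without db/db 1. Of 8 tested partners and relatives, 3 rose and 1 fell against WT, with a median of 0.24 and the same counts without db/db 1. Against db/+ 3 rose and 2 fell, with a median of -0.04. The shares of all genes were 21.8% higher and 19.9% lower against WT, and 20.6% and 19.7% against db/+. Lmo1, a related LIM-only gene, rose by 2.43 ± 0.39 to 6.02 ± 1.05 CPM among db/db libraries, against 1.12 ± 0.326 CPM among WT libraries (adjusted p = 2.44e-04). Ldb2, which bridges LIM proteins, rose by 1.31 ± 0.23 (adjusted p = 5.30e-04). The islet LIM-homeodomain gene Isl1 fell by 0.62 ± 0.09 to 120.1 ± 6.07 CPM among db/db libraries, against 185 ± 4.33 CPM among WT libraries (adjusted p = 1.02e-04).

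A further 12 genes that have been described as disallowed in beta cells were read beside the 10. All 12 were tested, 5 rose, 0 fell and 7 did not pass in db/db against WT, with a median of 1.12 beside 0.01 for all genes, and 5 and 0 were called without db/db 1. Against db/+ 6 rose and 1 fell, beside 20.6% and 19.7% of all genes, and 21.8% and 19.9% of all genes against WT. In db/+ against WT 0 of these 12 passed edgeR's test, and 1 did without db/db 1. Igf1r, a gene of the insulin-like growth factor axis and not 1 of these 12, was called lower in that comparison (-0.47 ± 0.11, adjusted p = 0.0493). It was named for that comparison after its value was seen. Yap1, a coactivator of the Hippo pathway that restrains growth, stood at 22.8, 13.0 and 15.2 CPM among db/db, 11.2, 9.37 and 9.14 CPM among db/+ and 10.4, 8.31 and 7.52 CPM among WT libraries (0.94 ± 0.20 against WT, adjusted p = 0.00222). The growth factor gene Igf1 stood at 17.7, 6.44 and 5.28 CPM among db/db, 1.86, 1.69 and 2.86 CPM among db/+ and 2.86, 1.35 and 1.32 CPM among WT libraries (2.36 ± 0.51, adjusted p = 0.00427). For each of these genes all db/db libraries were above all others, and db/db 1 was the highest.

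**Figure D4:**
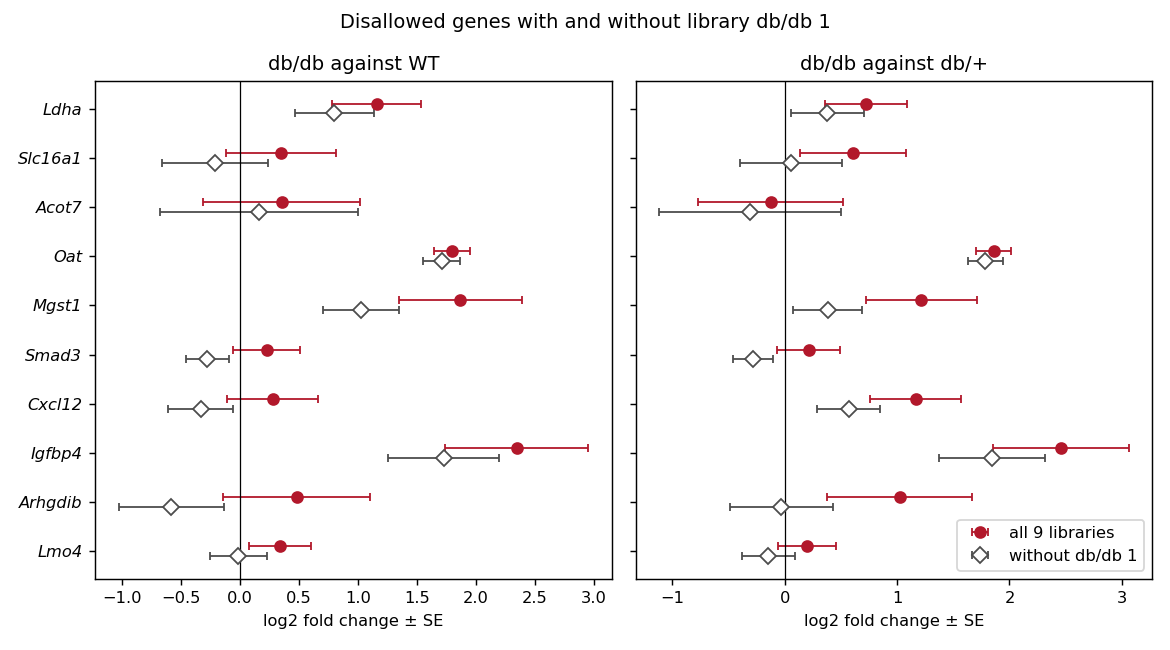
Log2 fold changes ± SE of the 10 genes for db/db against WT (left) and against db/+ (right), with all 9 libraries (filled circles) and without db/db 1 (open diamonds). Oat is at 1.80 and 1.71 against WT, while the points of Slc16a1, Smad3, Cxcl12, Arhgdib and Lmo4 against WT lie below 0 without that library.

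Marker sums of other cell types also differed between the groups. Beside the calls below, 21.8% of all genes were called higher and 19.9% lower against WT, and 20.6% higher against db/+. Markers of stellate cells, fibroblasts and pericytes summed to 2072, 791 and 1335 CPM among db/db, 375, 248 and 256 CPM among db/+ and 365, 282 and 256 CPM among WT libraries, and 8 of 11 rose against WT with a median of 2.22. Duct markers summed to 1547, 999.5 and 1114 CPM among db/db, 483 to 553 CPM among db/+ and 419 to 480 CPM among WT libraries, with 8 of 10 higher. Acinar markers without trypsinogens summed to 18454 to 50535 CPM among db/db, 15634 to 35725 CPM among db/+ and 6737 to 12777 CPM among WT libraries, with 10 of 18 higher against WT and 1 of 18 higher against db/+. Endothelial markers (5 of 10 higher and 1 lower, db/db 687 to 906 CPM, WT 625 to 680 CPM) and leukocyte markers (2 of 11 tested higher, db/db 155 to 267 CPM, WT 98.5 to 146 CPM) differed less. The T cell marker Cd3e was too low to test and at 0 in 5 of 9 libraries, and no other marker was at 0. The part of these cell types in the differences of Ldha, Mgst1, Igfbp4 and Cxcl12 was not tested beyond the acinar covariate. Between db/db (8.76 log2 CPM or more) and WT (at most 8.13 log2 CPM) the acinar mean had no overlap. Against WT that fit thus cannot separate acinar content from genotype. The Oat call held in both db/db comparisons with that covariate, which covers acinar markers only. The acinar means of db/+ (8.36 to 9.53 log2 CPM) overlapped with those of db/db. Duct sums had no overlap between db/db (999.5 CPM or more) and the other groups (at most 553 CPM). The same held for stellate, fibroblast and pericyte sums (791 CPM or more, against at most 375 CPM). Oat separated the groups in the same way, and the part of these cell types in its difference was not tested.

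**Figure D5:**
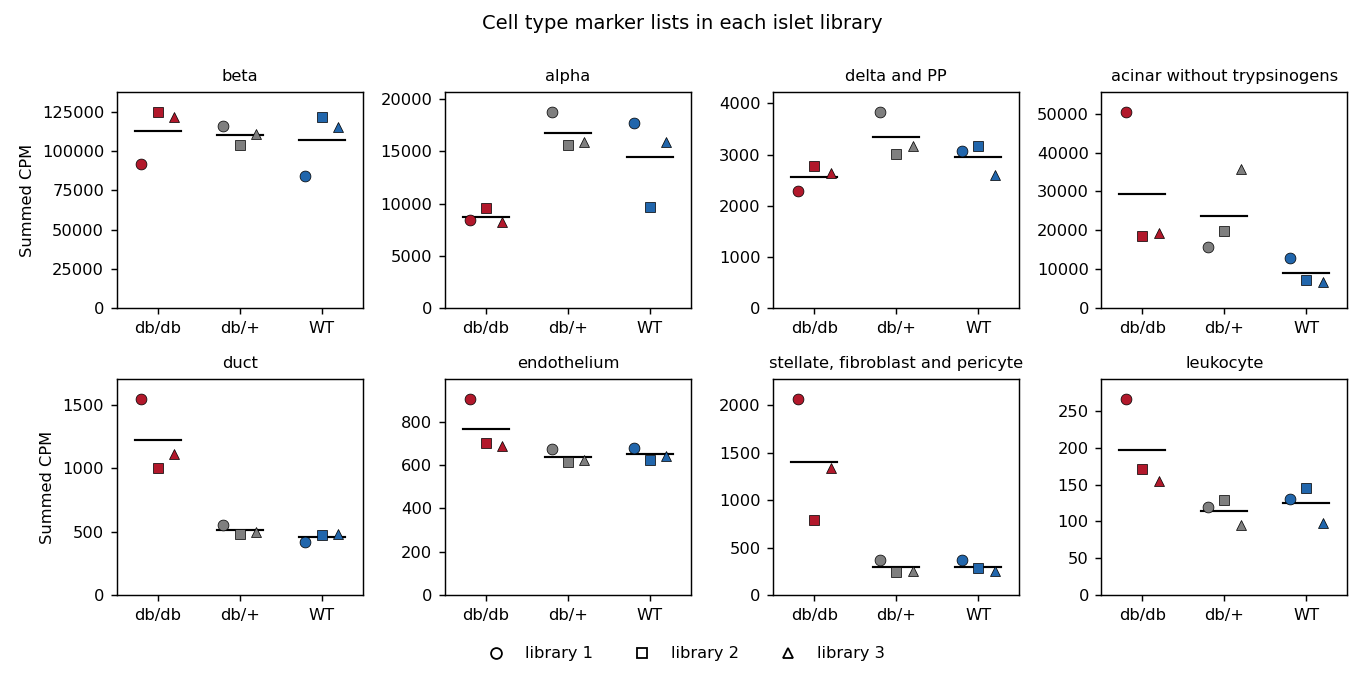
Summed CPM (linear axes from 0) of the marker lists of 8 cell types in each library of db/db, db/+ and WT islets; symbols give the library number and bars the group mean. Acinar, duct, endothelial, stromal and leukocyte sums are highest in db/db 1, and the alpha cell sum is lower in all 3 db/db libraries (8209 to 9546 CPM) than in the other 6 (9638 CPM or more).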

How the data were processed

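RNA of purified islets was extracted with Trizol, and libraries were made by the Ribo-Zero Gold protocol, per the labels. The submitters' processing notes name bcl2fastq (version 2.20.0.422), TopHat2 (version 2.0.14) and mm10. The deposited values are whole-number read counts per gene symbol, which the authors did not normalise. Neither the counting program nor its strand setting is known here, so overlapping genes and near copies can share reads. A further 1 column of the table matched no sample and was left out.

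Genes were kept by filterByExpr, scaled with TMM factors and fitted to all 9 libraries with a term per group (edgeR 4.0.16 in R 4.3.3, robust, two-sided, 6 residual degrees of freedom, common biological coefficient of variation 0.129). The fit was also run on simulated counts with the same coefficient of variation (0.129) for every gene and no library standing apart. That run does not test calls of members whose level stood apart in db/db 1. Within groups, log2 CPM had a Pearson correlation of 0.976 to 0.992. Levels per kilobase used exon lengths from the GENCODE annotation of an older mouse assembly. Positions and promoters came from RefSeq GRCm38.p6.

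Alternatives were DESeq2 1.42.0, voom in limma 3.58.1, other scale factors and filters, the compared groups alone, removal of Gm42418 and Lars2, covariates (title letter, acinar marker mean, Y-linked sum) and each library left out. The results of 1 list of other genes and some further items are not reported here. The members, lists and choices were made with earlier results of these data known. Named genes were the 10 members, from each list up to 2 risen and 2 fallen genes with the smallest adjusted p against WT, and 7 close relatives. Figures were drawn with matplotlib 3.10.9.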

Additional observations from a re-analysis of the deposited data

How the results depend on the processing

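No paired analysis was possible because the replicate numbers only follow accession order and pair no libraries. In db/db against WT, 7018 genes were called, and 5774 to 7004 with a library left out. With the title letter, the acinar mean and the Y-linked sum as covariates 4425, 3669 and 4705 genes were called. Of the 10 disallowed genes 4 were called there, 1 with the acinar and 8 with the Y-linked covariate, and 1 to 4 with a library left out (2 without WT 1, 1 without WT 3). In db/db against db/+, 6773 genes were called, 2033 with the title letter and 4433 with the Y-linked covariate, and 3 members were called, 1 and 8 with these covariates and 1 to 4 with a library left out (1 without db/+ 2 or db/+ 3). In db/+ against WT, 240 genes were called, 768 without the low-count filter, 633 by DESeq2, about 1.2e+02 by limma-voom, 45, 93 and 399 with the title letter, acinar and Y-linked covariates, and 23 to 430 with a library left out; 0 members were called, and 1 with the Y-linked covariate. Scaling by library totals moved the median of all genes to -0.22 in both db/db comparisons, with 2176 higher and 5317 lower against WT (3670 and 3348 with TMM) and 2011 higher and 5265 lower against db/+ (3459 and 3314 with TMM).

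Signs turned for log2 fold changes that did not pass in the comparison concerned when all 9 libraries were fitted by group alone. Against WT these were Smad3 (-0.018) with library totals, and Slc16a1 (-0.52), Smad3 (-0.57), Cxcl12 (-0.78), Arhgdib (-1.52) and Lmo4 (-0.50) with the acinar covariate. Against db/+ they were Smad3 (-0.036) and Lmo4 (-0.042) with library totals, Acot7 with limma-voom (0.11), the title letter (0.96), the acinar mean (0.18) and the Y-linked sum (0.49), and Smad3 (-0.012) and Lmo4 (-0.0020) with the acinar mean. In db/+ against WT they were Smad3 without the filter (-9.738e-04), with only the compared groups (-3.337e-04), with the acinar (-0.55) and with the Y-linked covariate (-0.080), and Mgst1 (-0.27) and Lmo4 (-0.50) with the acinar covariate. With a library left out, log2 fold changes of db/db against WT spanned -0.21 to 0.76 for Slc16a1, -0.28 to 0.45 for Smad3, -0.33 to 0.51 for Cxcl12, -0.58 to 0.82 for Arhgdib and -0.013 to 0.54 for Lmo4. Against db/+ they spanned -0.49 to 0.79 for Acot7, -0.28 to 0.44 for Smad3, -0.032 to 1.47 for Arhgdib and -0.15 to 0.40 for Lmo4. In db/+ against WT they spanned -0.56 to 0.033 for Slc16a1, -0.44 to 1.17 for Acot7, -0.21 to 0.015 for Oat, -0.081 to 0.075 for Smad3 and -0.58 to 0.26 for Igfbp4. The causes were not tested. Where members had as few as 10 counts in a library, counting error limits what can be seen.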
